A study of Mus musculus with 6 samples.

Results

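The REV-ERB receptors Nr1d1 and Nr1d2, the ROR receptors Rora and Rorb and the factor Nfil3 were examined in aortic RNA of PALMD+/- and wild-type mice. They are 5 of the 29752 genes measured and were found by their gene symbols. The group was proposed from the comparison of heterozygote with wild type in these same libraries, in which Nr1d1 and Nr1d2 stood out. The differences between genotypes in these genes are therefore given as a description with no test. Of the 5 genes, 4 passed the filter on low values (at least 1 FPKM in at least 3 libraries), and Rorb did not. FPKM counts the reads on a gene relative to its length and to the size of the library.

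Aortas came from C57BL/6 mice aged 15 weeks, with 3 libraries from PALMD+/- mice and 3 from wild-type mice. Both groups ate normal diet for the last 7 of these weeks, starting when 8 weeks old. PALMD+/- mice carry an altered allele of Palmd, the gene of palmdelphin. The labels do not say how the allele was made, whether each library is 1 animal, or at what time of day the tissue was taken. The time of day was not tested, and if libraries are not from separate animals the error given here is technical.

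The REV-ERB and ROR proteins are nuclear receptors of the second loop of the circadian clock. Both families bind the same DNA element, the RORE. There the RORs, with coactivators, raise transcription and the REV-ERBs, with the NCoR and HDAC3 corepressor complex and heme as their ligand, lower it. The best known gene under this control is Arntl, which encodes BMAL1. BMAL1 with CLOCK in turn drives Nr1d1, Nr1d2, the Per and Cry repressors and the output factor Dbp through E-boxes. NFIL3 is a basic leucine zipper repressor that competes at D-boxes with the activators DBP, TEF and HLF, and Nfil3 is itself a RORE gene. Smooth muscle and endothelial cells of the aorta both hold a working clock.

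The promoters of all 5 genes were found in the RefSeq set for GRCm38.p6, and the 250 bases before the annotated start were searched on both strands. Those of the 2 REV-ERB genes and of Nfil3 are shown because these are the members with the largest differences between genotypes. All 3 are printed on the strand of the gene, and capitals mark the core receptor element AGGTCA or its complement TGACCT. The windows are chr11:98775378-98775627, chr14:18239107-18239356 and chr13:52981040-52981289, in the order printed, all on the minus strand.
Nr1d1: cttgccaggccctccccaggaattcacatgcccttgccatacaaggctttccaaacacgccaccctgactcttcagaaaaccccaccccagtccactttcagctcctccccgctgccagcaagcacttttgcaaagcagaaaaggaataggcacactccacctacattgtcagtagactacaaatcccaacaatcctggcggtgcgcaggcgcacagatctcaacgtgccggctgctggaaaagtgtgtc
Nr1d2: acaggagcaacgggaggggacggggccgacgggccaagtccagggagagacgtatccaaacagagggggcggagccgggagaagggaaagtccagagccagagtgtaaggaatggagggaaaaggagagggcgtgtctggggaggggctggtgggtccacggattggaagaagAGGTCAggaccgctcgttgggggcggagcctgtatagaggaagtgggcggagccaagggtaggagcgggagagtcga
Nfil3: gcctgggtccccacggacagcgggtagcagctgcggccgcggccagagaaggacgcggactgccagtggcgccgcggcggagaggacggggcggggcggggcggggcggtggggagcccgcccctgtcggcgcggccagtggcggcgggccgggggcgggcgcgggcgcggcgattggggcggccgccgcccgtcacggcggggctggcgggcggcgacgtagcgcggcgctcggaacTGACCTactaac

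The core AGGTCA was found in Nr1d2, ending 71 bases before the start, and in Nfil3 on the opposite strand, 6 bases before the start. It is present in 14.0% of 32841 promoter windows of the same length. The Nfil3 match reads TAGGTCA on its own strand. With an A or T before the core the element is in 6.18% of windows, and Nfil3 was the only member that held it. None of the 5 members held the E-box CACGTG (6.02% of windows), the D-boxes TTATGTAA or TTACGTAA (0.932%), or the full RORE (0.332%) in these windows. The Nfil3 window was 81.6% G and C, against 63.6% for Nr1d2, 54.8% for Nr1d1 and a median of 52.4% over all windows.

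The libraries were of nearly equal depth, with 17283951 to 18263324 reads behind the values in heterozygotes and 18009030 to 18372131 in wild type. Palmd measured 5.31, 7.19 and 6.21 FPKM in heterozygotes, against 5.49, 7.88 and 10.1 FPKM in wild type (values of a group are always listed for replicates 1, 2 and 3). The groups overlapped, and reads over the whole gene may include an altered allele, so Palmd does not check the labels. The smooth muscle markers Acta2, Myh11, Tagln, Cnn1, Smtn and Lmod1 summed to 4721 to 10179 FPKM in heterozygotes and 7062 to 9940 FPKM in wild type. Most of the sum was Acta2, and all but Tagln were high, as in aortic wall. Tagln was far below the rest, at 2.12 to 4.16 FPKM in heterozygotes and 3.02 to 4.29 FPKM in wild type. The reason for this was not tested. Heterozygote replicate 2 stood apart: its mean correlation with the other libraries was 0.930, against 0.960 to 0.971 for the rest. It had the lowest sum of the 5 endothelial markers (184 FPKM, against 609 to 685 FPKM elsewhere), although 1 of them, Kdr, was highest there at 14.6 FPKM, against 3.43 to 5.42 FPKM elsewhere, and the highest sum of the 6 white adipocyte markers. It also had the highest sum of the 5 neuron markers. Fold changes of members that rest on it are given with and without it.

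Nr1d1 encodes REV-ERB alpha (ENSMUSG00000020889, GRCm38 chromosome 11, 98767932 to 98775333, minus strand). It measured 87.7, 82.1 and 33.9 FPKM in heterozygotes, against 5.07, 5.93 and 7.58 FPKM in wild type. The lowest heterozygote lay above the highest wild type, and heterozygote replicate 3 was well below the other 2 of its group. These values rested on 4925, 4364 and 1903 reads in heterozygotes and on 285, 335 and 420 reads in wild type. The means were 67.9 ± 29.6 FPKM in heterozygotes and 6.19 ± 1.28 FPKM in wild type (SD, n = 3 each), a ratio of 11.0. On the log2(FPKM + 1) scale used for all fold changes here, which understates the change of low genes, the difference was 3.16 (SE 0.37, 95% interval 2.27 to 4.05). This was rank 1 of the 12620 filtered genes by absolute fold change.

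Nr1d2, which encodes REV-ERB beta (ENSMUSG00000021775, chromosome 14, 18204054 to 18239127, minus strand), was at 32.3, 20.6 and 12.3 FPKM in heterozygotes and at 8.71, 8.95 and 5.02 FPKM in wild type. The groups did not overlap, and within heterozygotes the libraries stood in the same order as for Nr1d1. The means were 21.7 ± 10.0 FPKM in heterozygotes and 7.56 ± 2.20 FPKM in wild type (SD, n = 3 each), with a log2 fold change of 1.35 (SE 0.36, 95% interval 0.48 to 2.22), rank 29. The balance between the paralogs is likewise a description, since both were chosen on this contrast. The ratio of Nr1d1 to Nr1d2 in FPKM was 2.72, 3.98 and 2.75 in heterozygotes and 0.582, 0.662 and 1.51 in wild type.

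**Figure D1:**
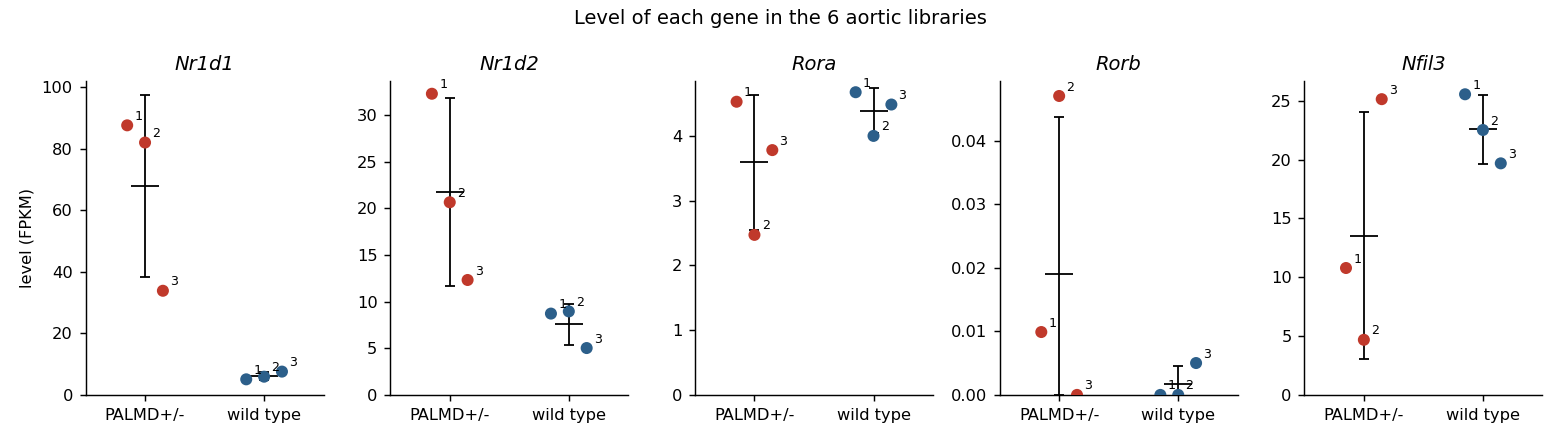
Level in FPKM (vertical axis, from 0) of the 5 genes in the 3 PALMD+/- (red) and 3 wild-type (blue) libraries, with replicate numbers beside the points and the mean ± SD as bars (lower bar cut at 0). Nr1d1 and Nr1d2 do not overlap between groups, Nfil3 of heterozygote replicate 3 lies among the wild types at 25.1 FPKM, and Rorb is under 0.05 FPKM throughout.

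Because the library kit is not described as keeping strand, genes that overlap on opposite strands could share reads. Thra, the gene of thyroid hormone receptor alpha, overlaps Nr1d1 tail to tail, with 263 bases that are exonic in both genes. Thra was at 47.3, 47.1 and 49.6 FPKM in heterozygotes and at 37.0, 31.0 and 33.1 FPKM in wild type. Its 3 heterozygote values also lay above the wild types (log2 fold change 0.50, SE 0.11). Within heterozygotes Thra had its most reads, 4182, in replicate 3, where Nr1d1 had its fewest. Whether the genes shared reads was not tested. In no library did the other overlapping gene, Gm15511 on the strand opposite Rora, exceed 0.295 FPKM.

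Rora encodes ROR alpha (ENSMUSG00000032238, chromosome 9, 68653786 to 69388246, plus strand). It was at 4.52, 2.47 and 3.78 FPKM in heterozygotes and at 4.67, 4.00 and 4.48 FPKM in wild type. The groups overlapped, and the lowest value was that of heterozygote replicate 2. This gave a log2 fold change of -0.25 (SE 0.18, 95% interval -0.69 to 0.18), which was -0.07 without that library.

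Rorb encodes ROR beta, known mainly from retina and brain (ENSMUSG00000036192, chromosome 19, 18930605 to 19111196, minus strand). It had 2, 9 and 0 reads in heterozygotes and 0, 0 and 1 in wild type, at most 0.0470 FPKM. No fold is therefore given here, and nothing is read from those printed for the alternatives. The library with 9 reads, heterozygote replicate 2, was also the one in which the neuron markers Snap25, Tubb3, Rbfox3, Syt1 and Elavl4 summed to 161 FPKM, against 0.904 to 11.7 FPKM in the other 5 libraries. Rbfox3 alone of the 5 was not raised there, at 0.269 FPKM, against 0.160 to 0.376 FPKM elsewhere. In heterozygote replicate 1, which had 2 Rorb reads, the sum was the lowest of all at 0.904 FPKM, and in wild type replicate 3, which had 1 read, it was 11.7 FPKM. The part of these markers in the Rorb reads was not tested.

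The REV-ERB transcripts Nr1d1 and Nr1d2 together summed to 119.9, 103 and 46.2 FPKM in heterozygotes, against 13.8, 14.9 and 12.6 FPKM in wild type. The sum averaged 89.6 ± 38.6 FPKM in heterozygotes and 13.8 ± 1.14 FPKM in wild type (SD, n = 3 each). The groups did not overlap for this sum, whereas those of the activator Rora did. Both REV-ERB genes were chosen on this contrast, so the sum adds nothing to their separate values.

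Nfil3 (ENSMUSG00000056749, chromosome 13, 52967209 to 52981073, minus strand) was at 10.8, 4.68 and 25.1 FPKM in heterozygotes and at 25.5, 22.5 and 19.7 FPKM in wild type. Heterozygote replicates 1 and 2 lay below all wild types, and replicate 3 lay among them. The means were 13.5 ± 10.5 FPKM in heterozygotes and 22.6 ± 2.94 FPKM in wild type (SD, n = 3 each), with a log2 fold change of -0.96 (SE 0.51, 95% interval -2.20 to 0.27). The size depended on the library left out: leaving out heterozygote replicate 2 gave -0.42, and leaving out heterozygote replicate 3 gave -1.52. The low value in replicate 2 stood beside that library's low endothelial marker sum of 184 FPKM, in which Pecam1, Cdh5, Vwf and Tek were low and Kdr was not. The part of these cells in the Nfil3 value was not tested. Replicate 1 had low Nfil3 with an endothelial sum of 635 FPKM, inside the wild-type range of 611 to 685 FPKM. In bulk tissue fewer cells of a type and less RNA per cell cannot be told apart.

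Heterozygote replicate 3 had the lowest Nr1d1 and the highest Nfil3 of its group, while replicate 2 was below replicate 1 for both genes. The ratio of Nr1d1 to Nfil3 was 8.13, 17.5 and 1.35 in heterozygotes and 0.198, 0.263 and 0.385 in wild type. Nfil3 was the most abundant of the 5 genes in every wild type, with 53.5% to 58.1% of their summed FPKM. Nr1d1 was the most abundant in every heterozygote, with 45.1% to 74.7%. The order of the group means was Nr1d1, Nr1d2, Nfil3, Rora, Rorb in heterozygotes and Nfil3, Nr1d2, Nr1d1, Rora, Rorb in wild type. Nr1d2 and Nfil3 overlapped in heterozygotes, and Nr1d2 and Nr1d1 overlapped in wild type, so these neighbours did not differ beyond their spread.

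**Figure D2:**
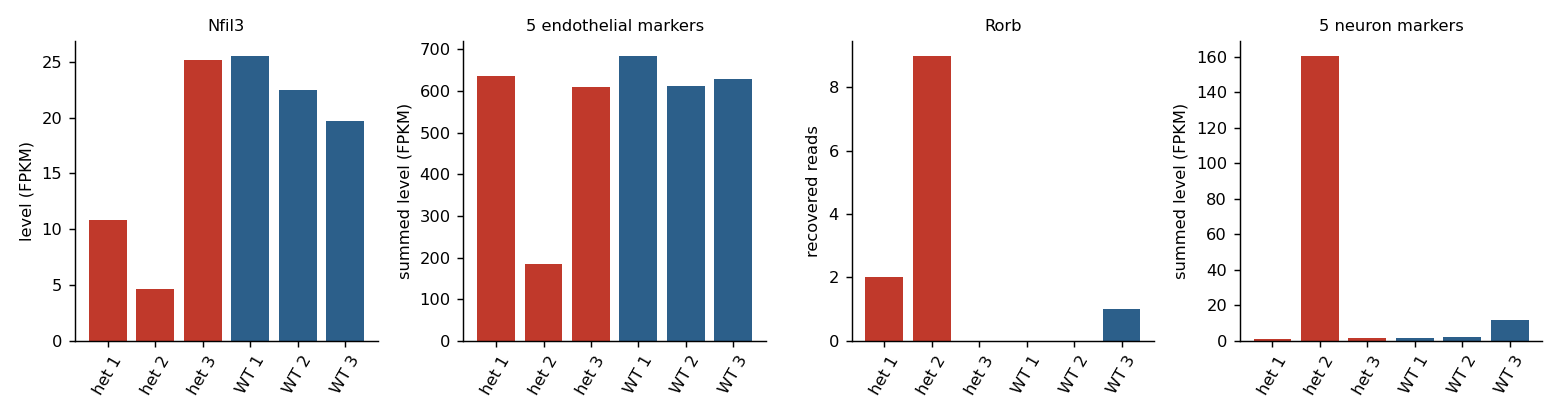
Nfil3 (FPKM), the sum of 5 endothelial markers (FPKM), Rorb (reads) and the sum of 5 neuron markers (FPKM) in each library, bars from 0, PALMD+/- in red and wild type in blue. Heterozygote replicate 2 has the lowest Nfil3 (4.68 FPKM) and endothelial sum (184 FPKM) and the highest Rorb (9 reads) and neuron sum (161 FPKM).

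Adipocyte markers varied between libraries. Within heterozygotes the white adipocyte markers Adipoq, Plin1, Lep, Cfd, Retn and Cidec summed to 1273, 4298 and 1757 FPKM. Nr1d1 was at 87.7, 82.1 and 33.9 FPKM in the same libraries. The sums were 1273 to 4298 FPKM in heterozygotes and 1403 to 3201 FPKM in wild type. The 5 brown adipocyte markers summed to 79.5 to 1289 FPKM in heterozygotes and 239.9 to 1045 FPKM in wild type. With the white adipocyte level as a covariate the log2 fold changes were 3.19 for Nr1d1, 1.31 for Nr1d2, -0.29 for Rora and -1.05 for Nfil3.

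No gene of the series passed the threshold. With limma, 0 of 12620 genes had an adjusted p under 0.05 (0%), so none of the members did, and 820 (6.50%) were under 0.05 before adjustment. Fitting the recovered reads with limma voom also gave 0 calls, with 815 genes under 0.05 before adjustment. The groups did not overlap for 12.9% of genes, 7.80% with all heterozygotes higher and 5.12% with all lower. Of the 4 filtered members, 2 did not overlap, both with heterozygotes higher, but the members were chosen on this contrast and nothing is read from that count.

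Among 15 clock partners of the receptors (the BMAL and CLOCK activators, the Per, Cry and DEC repressors and the PAR bZIP factors), 0 passed. The groups did not overlap for 4 of them, Dbp and Ciart above and Cry1 and Clock below, against 12.9% of all genes. Without heterozygote replicate 3, which had the lowest Nr1d1 of its group, it was 10 of the 15, against 19.8% of all genes. Leaving out any other library gave 4 to 6 of the 15, for which no share of all genes is given. The median log2 fold change of the 15 was 0.14, against 0.01 over all tested genes, with 9 positive and 6 negative. These lists were drawn up with earlier results of these data known.

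**Figure D3:**
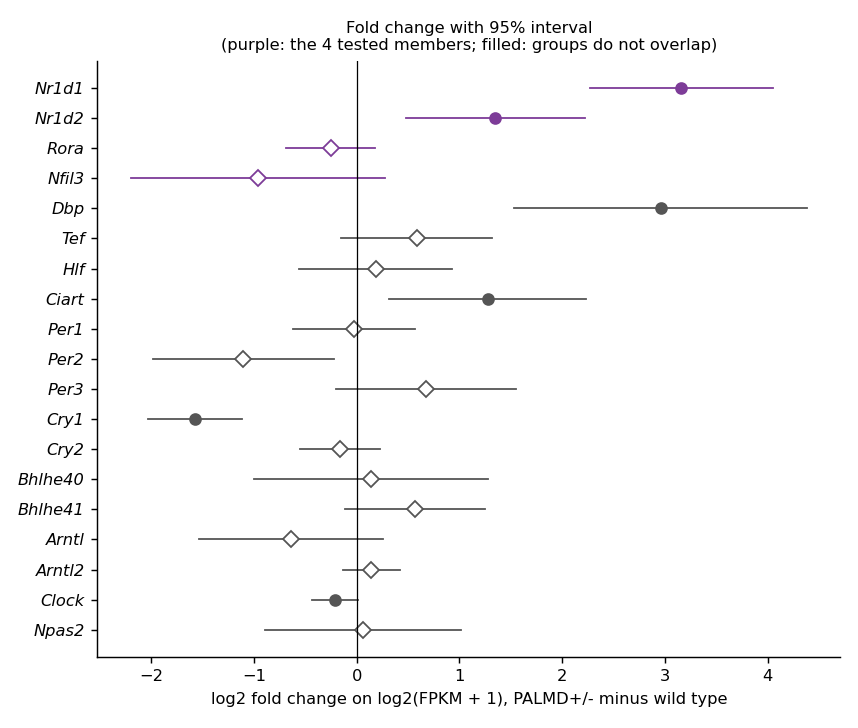
Log2 fold change on the log2(FPKM + 1) scale (PALMD+/- minus wild type, horizontal axis) with its 95% interval for the 4 filtered members (purple) and 15 clock partners (grey). Filled circles mark genes whose groups do not overlap, and Nr1d1 at 3.16 and Dbp at 2.96 lie farthest to the right.

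Of the genes reported as under the RORE, at which the REV-ERBs repress, none passed the threshold. Arntl was at 1.01, 1.92 and 4.23 FPKM in heterozygotes and at 3.05, 3.26 and 5.70 FPKM in wild type (log2 fold change -0.64, SE 0.37, limma adjusted p = 0.848). Heterozygote replicate 3 lay inside the wild-type range. The ratio of Nr1d1 to Arntl was 86.6, 42.9 and 8.01 in heterozygotes and 1.66, 1.82 and 1.33 in wild type. Npas2, a paralog of CLOCK, was at 2.63, 1.84 and 7.20 FPKM in heterozygotes and at 2.83, 2.62 and 4.36 FPKM in wild type, with the highest value of all in heterozygote replicate 3. Clock itself was at 4.86, 4.63 and 5.22 FPKM in heterozygotes and at 6.15, 5.35 and 6.03 FPKM in wild type (log2 fold change -0.21, SE 0.09, limma adjusted p = 0.774). Arntl, Npas2 and Nfil3 thus shared the feature that heterozygote replicate 3 was the highest of its group and lay within or above the wild types.

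Cry1, a repressor of BMAL1 and CLOCK reported to carry both a RORE and E-boxes, differed from that pattern. It was at 2.46, 2.04 and 3.93 FPKM in heterozygotes and at 9.71, 9.50 and 11.2 FPKM in wild type, with every heterozygote well below (log2 fold change -1.58, SE 0.19, limma adjusted p = 0.231). Relative to the wild-type mean, the log2 level of Cry1 was -1.69, -1.87 and -1.17 in heterozygote replicates 1 to 3, and that of Nr1d1 was 3.64, 3.55 and 2.29. Of the 4 RORE genes on the list (Arntl, Clock, Npas2 and Cry1), 3 had a negative fold change, 0 passed and the median was -0.43.

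Genes driven through E-boxes went both ways. The output factor Dbp was at 40.5, 35.2 and 8.96 FPKM in heterozygotes and at 2.72, 3.38 and 0.965 FPKM in wild type (log2 fold change 2.96, SE 0.59, limma adjusted p = 0.548). Ciart, a repressor of the clock, was at 7.12, 5.12 and 1.70 FPKM in heterozygotes and at 1.06, 1.49 and 0.835 FPKM in wild type (log2 fold change 1.28, SE 0.40, limma adjusted p = 0.637). For both genes heterozygote replicate 3 was the lowest of its group, as for Nr1d1 and Nr1d2. Per2 was at 28.3, 11.1 and 12.4 FPKM in heterozygotes and at 43.7, 37.4 and 26.5 FPKM in wild type (log2 fold change -1.10, SE 0.37, limma adjusted p = 0.678). Per1 had a log2 fold change of -0.03 and Per3 one of 0.67, both with overlapping groups. Of the 13 partners with a RefSeq promoter (18 windows), 5 held CACGTG in the 250 bases before the start (Per1, Cry1, Ciart, Bhlhe41 and Tef), and 1, Per3, held the D-box. None held the full RORE or its core with an A or T before it. The shares given above for all promoters are per window and not per gene, so these counts are not set against them.

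The activators that NFIL3 opposes were all positive, with log2 fold changes of 2.96 for Dbp, 0.58 for Tef and 0.18 for Hlf. Tef was at 38.0, 35.6 and 20.1 FPKM in heterozygotes and at 25.9, 20.8 and 14.3 FPKM in wild type. Hlf was at 7.32, 5.33 and 2.48 FPKM in heterozygotes and at 4.44, 4.15 and 3.45 FPKM in wild type. The ratio of Dbp to Nfil3, the activator over the repressor of the D-box, was 3.76, 7.52 and 0.357 in heterozygotes and 0.107, 0.150 and 0.0490 in wild type. This ratio did not overlap between groups, and neither did Dbp alone, whereas Nfil3 alone did.

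**Figure D4:**
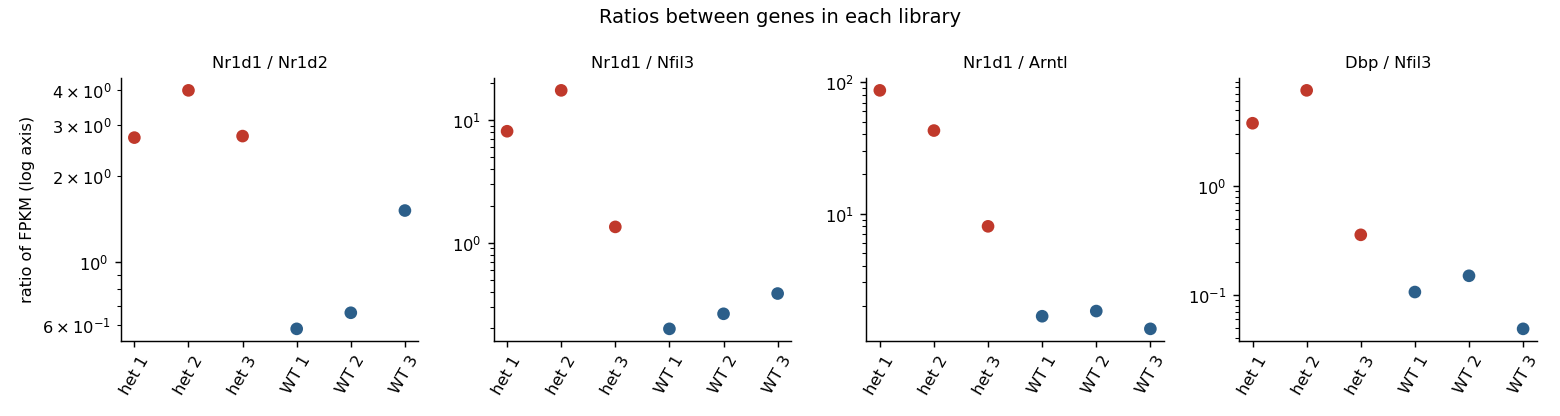
Ratio of FPKM values (log axis) of Nr1d1 to Nr1d2, Nr1d1 to Nfil3, Nr1d1 to Arntl and Dbp to Nfil3 in each PALMD+/- (het, red) and wild-type (WT, blue) library. The groups do not overlap for any of the 4 ratios. Nr1d1 was chosen on this contrast and Dbp alone does not overlap, so nothing further is read from that. For Nr1d1 to Arntl the 3 heterozygotes are at 8.01 or more and the wild types at 1.82 or less. Heterozygote replicate 3 is the lowest of its group for both ratios to Nfil3.

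**Figure D5:**
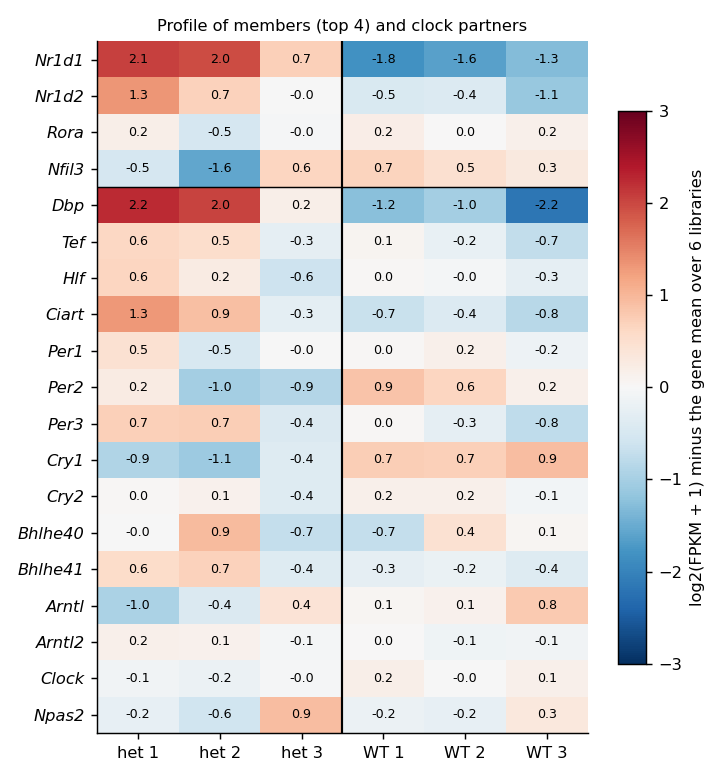
Log2(FPKM + 1) of the 4 filtered members (top) and 15 clock partners minus each gene's mean over the 6 libraries, PALMD+/- (het) left and wild type (WT) right, red above and blue below the mean. Nr1d1, Nr1d2, Dbp and Ciart are highest in heterozygote replicates 1 and 2, and Arntl, Npas2 and Nfil3 are higher in heterozygote replicate 3 than in these.

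The genes nearest to each member were found by the mean absolute difference of centred log2(FPKM + 1) values over the 6 libraries, leaving out predicted genes and pseudogenes. Nearest to Nr1d1 was Dbp, with a difference of 0.47, where the mean absolute deviation of Nr1d1 itself is 1.58. Next came the immunoglobulin segment Ighj4, the small RNA gene DQ267102 and Tcap at 0.61, 0.71 and 0.82, and the T cell receptor segment Trbd1 at 0.89. Ighj4, DQ267102 and Trbd1 had at most 10 reads in any library, so only Dbp and Tcap rest on many reads.

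Nearest to Nr1d2 was Tcap, the gene of the titin cap protein telethonin, at a difference of 0.15, followed by Ciart at 0.17, Tmem86a at 0.34, and Per3 and Slc37a1 at 0.35 each. Tcap was at 62.7, 34.5 and 26.8 FPKM in heterozygotes and at 16.7, 14.5 and 8.20 FPKM in wild type (log2 fold change 1.55, SE 0.37, limma adjusted p = 0.553). Its groups did not overlap, and its libraries stood in the same order as those of Nr1d2 but for wild type replicates 1 and 2. The skeletal muscle markers Ckm, Acta1, Myh4, Tnnt3 and Mylpf, by contrast, summed to 3.75 to 4.39 FPKM in heterozygotes and 3.43 to 5.20 FPKM in wild type. Nearest to the mirror image of Nr1d1 were Hspb1 (0.78), Cry1 (0.79), Nr4a1 (0.82), Zbtb16 (0.83) and Sdf2l1 (0.85).

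Rora and Nfil3 had other neighbours. Those of Rora were Mgat2, Ctbp2, Gnai3, Ick and Ptprm, at 0.02 to 0.04, all of them lowest in heterozygote replicate 2. Those of Nfil3 were Nrm (0.18), Klk8 (0.25), Icam2 (0.26), Krt18 (0.27) and Cx3cl1 (0.28). Icam2, an adhesion molecule of endothelium, was at 28.5, 7.72 and 33.8 FPKM in heterozygotes and at 27.3, 31.7 and 30.0 FPKM in wild type. Icam2 was therefore low in heterozygote replicate 2 alone, and all of these neighbours were lowest in that library. In heterozygote replicate 1 Nfil3 was also below every wild type, as were Nrm at 15.7 FPKM, Klk8 at 3.56 FPKM and Cx3cl1 at 8.37 FPKM. The part of endothelial cells in these values was not tested.

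Of 11 corepressors and coactivators 0 passed, and the median log2 fold change was -0.03. Hdac3, the histone deacetylase of the REV-ERB complex, was at 17.3, 19.3 and 17.5 FPKM in heterozygotes and at 15.4, 14.5 and 14.5 FPKM in wild type (log2 fold change 0.27, SE 0.09, limma adjusted p = 0.720). Its groups did not overlap. Nrip1, Ncoa3 and the corepressor Ncor1 overlapped between groups, with log2 fold changes of -0.33, -0.26 and -0.17.

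Genes reported outside the clock as repressed by REV-ERB showed no passing member (0 of 8 tested, of 15 listed). Their median log2 fold change was -0.42, against 0.01 over all tested genes. Ccl2, a chemokine for monocytes, was at 0.962, 1.07 and 0.674 FPKM in heterozygotes and at 1.44, 2.06 and 3.32 FPKM in wild type (log2 fold change -0.75, SE 0.22, limma adjusted p = 0.618). Mmp9, reported as a REV-ERB target in macrophages, lay on the other side, at 5.37, 5.17 and 6.48 FPKM in heterozygotes and at 2.75, 2.92 and 3.45 FPKM in wild type (log2 fold change 0.72, SE 0.12, limma adjusted p = 0.459). Among fat genes, Ucp1, at -1.06 (SE 1.19) on the log2 scale, and Pck1, at -0.52 (SE 0.43), overlapped between groups. So did Lpl, at -0.47 (SE 0.60), and Elovl3, at -0.37 (SE 0.65), between which the list median lies. The part of adipocytes in that median was not tested. The macrophage markers Adgre1, Csf1r, Cd68, C1qa and Lyz2 summed to 270 to 373 FPKM in heterozygotes and 249 to 320 FPKM in wild type. Of these 5, Csf1r lay higher in every heterozygote, at 22.0, 20.8 and 24.5 FPKM, against 15.6, 18.9 and 17.0 FPKM in wild type (log2 fold change 0.37, limma adjusted p = 0.651), and its part in the Mmp9 values was not tested.

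Genes that respond to glucocorticoid, to stimulation or to temperature were listed as well, and none of them passed the threshold. Of 9 tested glucocorticoid genes all had a negative fold change (median -0.48, 0 passed), with Zbtb16 at 19.0, 4.79 and 4.62 FPKM in heterozygotes and at 42.0, 37.1 and 34.1 FPKM in wild type. Over all tested genes, 5913 of 12620 were negative. Mt1, Sgk1, Tsc22d3, Dusp1 and Errfi1 were lowest in heterozygote replicate 2, at 66.8, 17.5, 22.3, 74.7 and 34.6 FPKM. For these genes heterozygote replicates 1 and 3 lay within or above the wild types. Fold changes of this list without heterozygote replicate 2 are not given. Of 10 immediate early genes 9 were negative (median -0.52, 0 passed), and 4, among them Nr4a1 and Junb, lay lower without overlap, against 5.12% of all genes. Of 9 temperature genes 0 passed and 7 did not overlap, against 12.9% of all genes. The cold-induced Cirbp and Rbm3 lay above (log2 fold changes 0.65 and 0.66), and Hspb1, Hspa1b, Hsph1, Hsp90aa1 and Hspa8 below. The 5 below were all lowest in heterozygote replicate 2, Hspa1b at 7.16 FPKM. Heterozygote replicate 3 lay just under the lowest wild type for Hspa1b (98.8 against 99.5 FPKM) and Hsph1 (40.7 against 41.7 FPKM). The part of these lists in the Nr1d1 and Nr1d2 values was not tested.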

How the data were processed

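The authors deposited FPKM-type values, 1 file per library, scaled by gene length and library reads. Whether reads or fragments were counted is not stated. Bowtie2 2.2.3, TopHat2, HISAT2 2.1.0 and the build GRCm38 appear, with no roles, in the submitters' processing notes, and the counting tool is not given in the sources used here. Per the labels' protocols the RNA was poly-T selected. Multiplied by exon-union lengths of GENCODE release M21, 94.5% to 94.8% of genes under 50 reads came out whole within 0.01 reads, which gave the reads printed.

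Groups and replicate numbers came from the sample titles. Headers inside the heterozygote files carry other numbers, in the same group. A count model is not used as the main test on this unit. The 12620 genes that reached 1 FPKM in 3 or more libraries were fitted with limma 3.58.1 (R 4.3.3, mean-variance trend) on log2(FPKM + 1), heterozygote minus wild type, no covariate, with Benjamini-Hochberg adjustment and a threshold of 0.05. The procedure was run on simulated data with independent noise for each gene and library, and the outcome is not reported here. Such noise does not cover differences in tissue make-up between libraries. Values were handled with Python 3.11.15, pandas 2.3.3 and numpy 2.4.6.

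Members, the gene lists (147 symbols, all matched) and the tests were chosen with earlier results of these data known. Named were all members, up to 4 tested genes per list by absolute fold change, the 5 nearest genes per filtered member and genes overlapping a member. Genes named beyond this (Hsp90aa1, Hspa8, Cirbp and Rbm3, for example) were chosen after their values were seen. Alternatives covered pseudocount, filter, scaling, replicate block, voom on recovered reads, an adipocyte covariate, array weights and each library left out. Of the same-numbered libraries only those numbered 1 deviated together (correlations of 0.51, -0.09 and -0.34), so the numbers were not taken as pairs. A planned ratio of receptor sums and a few list genes are not reported here.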

Additional observations from a re-analysis of the deposited data

How the results depend on the processing

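The log2 fold changes of Nr1d1, Nr1d2, Rora, Rorb and Nfil3 kept their sign under every alternative that gave a value. The filters and the replicate block could not change these values, and quantile normalization was not applied to Rorb. Nothing is read from the sign of Rorb, which had 11 reads in heterozygotes and 1 in wild type. Over libraries left out the fold changes ran from 2.92 to 3.59 for Nr1d1, 1.02 to 1.68 for Nr1d2, -0.40 to -0.07 for Rora, 0.0047 to 0.04 for Rorb and -1.52 to -0.42 for Nfil3. With array quality weights, which gave heterozygote replicate 3 a weight of 3.59 and heterozygote replicate 2 one of 0.170, Nr1d1 was at 2.55, Nr1d2 at 0.81, Rora at -0.11 and Nfil3 at -0.0935. That fit called 232 genes, among them Nr1d1 and 2 pathway genes (Mmp9 and Cry1). Nr1d1 was chosen on this contrast, so nothing is read from its calls, here or with libraries left out. Rorb was at 0.21 with a pseudocount of 0.1 and at 0.0732 rescaled to TPM, and the scale of so low a gene is set by the pseudocount. Over libraries left out, 0 to 1 genes passed in the whole series (Zbtb16 without heterozygote replicate 1, Nr1d1 without heterozygote replicate 3, Gm17720 without wild type replicate 1, Trbd1 without wild type replicate 2), and 0 pathway genes. The clock partners whose groups did not overlap numbered 4 to 10 over libraries left out and 3 with the filter of 5 FPKM or rescaled to TPM, with 10 without heterozygote replicate 3, where 19.8% of all genes did not overlap. With the replicate block 0 genes passed. Each block held a library of each group, so the members' fold changes could not differ from those without it (3.16 for Nr1d1). Alternatives that act only on the model give no value for counts of overlap. With 3 libraries a group, depth limited Rorb alone among the members.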

Other observations

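Heme is the ligand of the REV-ERBs, and the enzymes that make and break it had a median log2 fold change of 0.11 over 12 genes, 0 of which passed. Ppox, the last but one enzyme of the pathway, was at 11.5, 11.8 and 11.0 FPKM in heterozygotes and at 10.2, 9.20 and 9.59 FPKM in wild type (log2 fold change 0.22, SE 0.09, limma adjusted p = 0.762). Hmox2, a heme oxygenase, did not overlap either, at 15.8, 19.2 and 16.1 FPKM in heterozygotes and at 13.9, 14.4 and 15.3 FPKM in wild type. Alas1, the rate-limiting enzyme, and Hmox1 overlapped between groups, at -0.29 and -0.32 on the log2 scale. Alas1 was highest among heterozygotes in replicate 2, at 28.3 FPKM, and highest among wild types in replicate 3, at 30.2 FPKM.

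The clock kinases and ubiquitin enzymes had a median log2 fold change of -0.0028 over 6 tested genes, and 0 passed. Btrc, a ubiquitin ligase subunit for PER proteins, was at 1.69, 1.79 and 1.52 FPKM in heterozygotes and at 1.35, 1.05 and 1.34 FPKM in wild type (log2 fold change 0.25, SE 0.11). Usp2, a deubiquitinase, had a log2 fold change of -0.42, and its highest value was 8.71 FPKM in wild type replicate 2. Csnk1e had a log2 fold change of 0.07.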
